A study of Homo sapiens with 10 samples.

Results

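The sites described here are stretches of the genome of immortalized human astrocytes that carried H3K27ac, H3K9ac and H4K16ac at the same place before mutant IDH1 was induced. A site was an H3K27ac island of cells without doxycycline, on chromosomes 1 to 22 and shorter than 20000 bp, that overlapped by at least 1 bp both an H3K9ac and an H4K16ac island of the same cells. An island is a stretch that the peak caller SICER found enriched over the control library, so the sites were chosen by H3K27ac, H3K9ac and H4K16ac calls without doxycycline. The rule gave 25486 sites among 50960 H3K27ac islands on these chromosomes, or 50.01%. They were 51.3% of the 49639 islands under the length limit, and they are called 3-mark sites below.

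Acetylation of lysines in histone tails loosens chromatin and is bound by bromodomain proteins. H3K27ac and H3K9ac are known for active promoters and enhancers, where acetyltransferases such as p300/CBP and the GCN5/PCAF family place them. H4K16ac is placed mainly by the acetyltransferase MOF, occurs over wider stretches and hinders the folding of the nucleosome fibre. Places that hold all 3 acetylations are commonly active regulatory sites in a cell type.

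The cells were IHA, a fetal astrocyte line immortalized with SV40. Those without doxycycline are labelled WT IDH1, and those given doxycycline at 1 µg/ml for 2 days or 7 days are labelled IDH1-R132H, a glioma-associated mutant of the metabolic enzyme isocitrate dehydrogenase 1 whose product is 2-hydroxyglutarate. The series asks how inducing this enzyme alters histone acetylation. CUT&RUN, in which an antibody directs a nuclease to its target in permeabilized cells, was run on 200000 cells per reaction. The 10 samples were 9 antibody libraries, 1 per mark and time, and 1 control library of untreated cells, made with a secondary antibody carrying HRP. The labels name neither the promoter that drives the IDH1 transgene nor whether the line is 1 clone. The astrocyte identity of the line was not checked against marker genes, because no gene annotation of the files' build, hg19, was used here.

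With 1 library per mark and time there was no replicate error and no test between times. Every interval below is a 95% interval that covers counting error only. For a share or a median it treats sites as independent draws, although sites share libraries and some lie close together. For a single site it treats reads as counts, although reads shared out by length are estimates. Doxycycline was always given together with IDH1-R132H, so the drug and time in culture cannot be told apart from the mutant enzyme. Depth is known relative to the HRP library. In the order no doxycycline, 2 days, 7 days it was 3.98, 3.15 and 1.49 for H3K27ac, 3.05, 4.17 and 4.88 for H3K9ac, and 2.53, 3.08 and 7.88 for H4K16ac. H3K27ac was thus shallowest at 7 days, where H4K16ac was deepest, and the part of depth in the presence values below was not tested. In a bulk library, fewer cells with a mark and less of the mark per cell cannot be told apart.

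The 3-mark sites were the long and strong islands of the H3K27ac list. Their median length was 5400 bp, with quartiles of 3600 and 8400 bp and a range from 600 to 19800 bp, and they covered 166 Mb in all. The 12230 islands with H3K9ac but no H4K16ac had a median length of 4000 bp. It was 3200 bp for the 3812 with H4K16ac but no H3K9ac and 2600 bp for the 8111 with neither. Median H3K27ac reads per site were 195, 124, 70.0 and 66.0 in these classes, in the same order. Their HRP reads were alike, at 2.07, 2.17, 2.10 and 2.23 per kb. These values come from the libraries that chose the sites, and a longer island meets a 1 bp overlap more easily, so they are a description. The length limit itself left out 1321 islands, of which 1254 (94.9%) also carried both other marks. The 5 sites nearest inside the limit, all 19800 bp long, had 1397 to 1769 H3K27ac reads, and the 5 nearest outside it, all 20000 bp long, had 1392 to 1986.

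Inside most sites the marks lay on top of each other rather than end to end. In 24146 of 25486 sites (94.7%) islands of all 3 marks covered the same 200 bp windows, and in 1340 they did not meet. The shared core was 1800 bp at the median, with quartiles of 1200 and 2800 bp, and made up 32.5% of the summed length of the sites. Another 24.5% of that length carried H3K27ac alone, and 631 sites were core from end to end. Neighbouring sites lay 22000 bp apart at the median, with quartiles of 6600 and 64200 bp, and 21.3% of the gaps were within 5000 bp.

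Around the centre of the sites, H3K27ac and H3K9ac formed a peak at every time, whereas the H4K16ac peak at 7 days stood on a high shoulder. At the centre, H3K27ac islands covered 80.8% of sites at 2 days and 64.1% at 7 days, against every site before doxycycline, which the rule fixes. H3K9ac covered the centre of 78.3% of sites without doxycycline, 71.4% at 2 days and 76.3% at 7 days. H4K16ac covered 55.8%, 46.3% and 68.2%. The position 10 kb before the centre was covered by H4K16ac in 25.7% of sites without doxycycline, 29.1% at 2 days and 51.3% at 7 days. The H3K27ac values there were 27.8%, 23.4% and 19.3%, and those of H3K9ac 29.0%, 30.4% and 34.6%. Coverage at 10 kb moved in the same order as relative library size in all 3 marks.

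**Figure D1:**
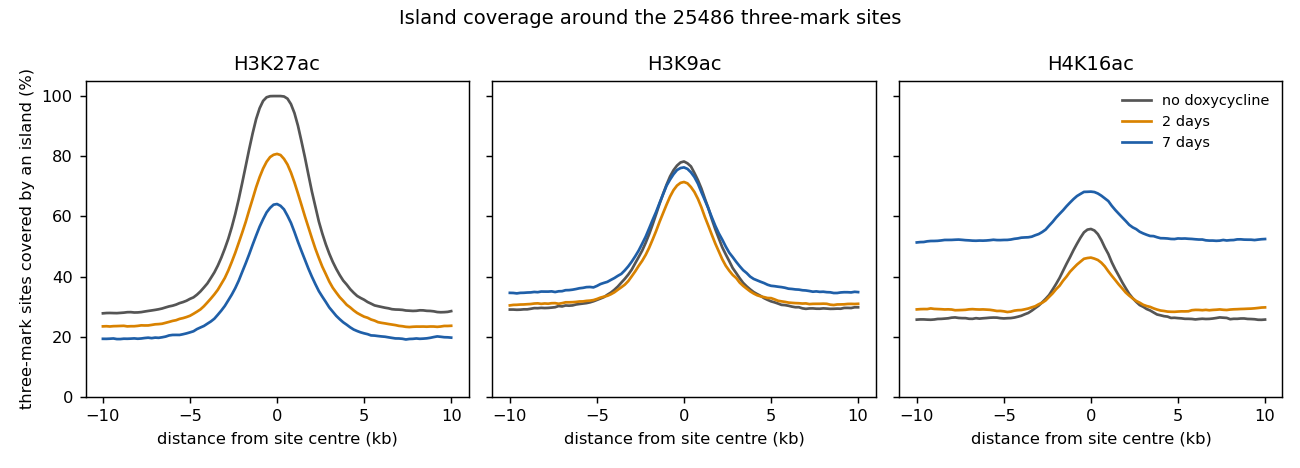
Share of the 25486 3-mark sites covered by an island (vertical axis, %) at each distance from the site's centre (horizontal axis, kb), with 1 panel per mark and 1 line per library. H3K27ac at the centre goes from every site to 80.8% and 64.1%, H3K9ac stays between 71.4% and 78.3%, and H4K16ac at 7 days lies above its other 2 lines at every distance drawn.

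An island of H3K9ac was still found at nearly every site during induction, one of H3K27ac at somewhat fewer, and H4K16ac was missed most often. H3K27ac was present at 23474 sites at 2 days (92.1%, interval 91.8 to 92.4%) and at 21954 at 7 days (86.1%, interval 85.7 to 86.6%). The same share over all H3K27ac islands on chromosomes 1 to 22 was 88.0% at 2 days and 79.6% at 7 days. H3K9ac was present at 23916 sites at 2 days (93.8%) and 23761 at 7 days (93.2%), beside 79.8% and 78.9% of all H3K27ac islands. H4K16ac was present at 18567 sites at 2 days (72.9%, interval 72.3 to 73.4%) and 21548 at 7 days (84.5%, interval 84.1 to 85.0%), beside 54.6% and 66.2%. Set against the marks' own lists without doxycycline, of which 73.6% of H3K9ac and 56.1% of H4K16ac islands were met again at 2 days and 74.1% and 74.7% at 7 days, the shares at 3-mark sites were also higher. All 4 of these higher shares include the selection itself, since a site had to carry both marks without doxycycline and the islands at large did not. The units also differ in length. The 25486 sites span 166 Mb, the 88147 H3K9ac islands 312 Mb and the 109591 H4K16ac islands 275 Mb. A longer stretch meets a 1 bp overlap more easily.

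Presence rose with the length of a site, and at equal length it differed between classes. Among sites of at most 2000 bp, H3K27ac was present in 80.5% at 2 days and 63.3% at 7 days. Among those of more than 8000 bp it was present in 99.4% and 98.6%. At equal length, 3-mark sites and islands with H3K9ac but no H4K16ac kept H3K27ac nearly alike: between 4200 and 8000 bp, 93.5% and 95.6% had it at 2 days, and at 7 days 89.1% and 89.7% did. Islands of that length with H4K16ac and no H3K9ac had H3K27ac in 76.7% and 73.8%, and those with H3K27ac alone in 87.6% and 76.5%. H3K9ac differed between the first pair of classes, although the rule gave it to both. It was present at 95.1% of 3-mark sites and 85.1% of the islands with H3K9ac but no H4K16ac at 2 days, and at 94.3% and 84.8% at 7 days. These 2 classes were matched on length and not on H3K9ac reads. Over all lengths, median H3K9ac reads without doxycycline were 67.0 at 3-mark sites and 41.0 at the others. The part of these reads in the difference was not tested. H4K16ac at 7 days was present at 84.8% of the 3-mark sites of this length and at 55.8% of the islands that had lacked it.

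**Figure D2:**
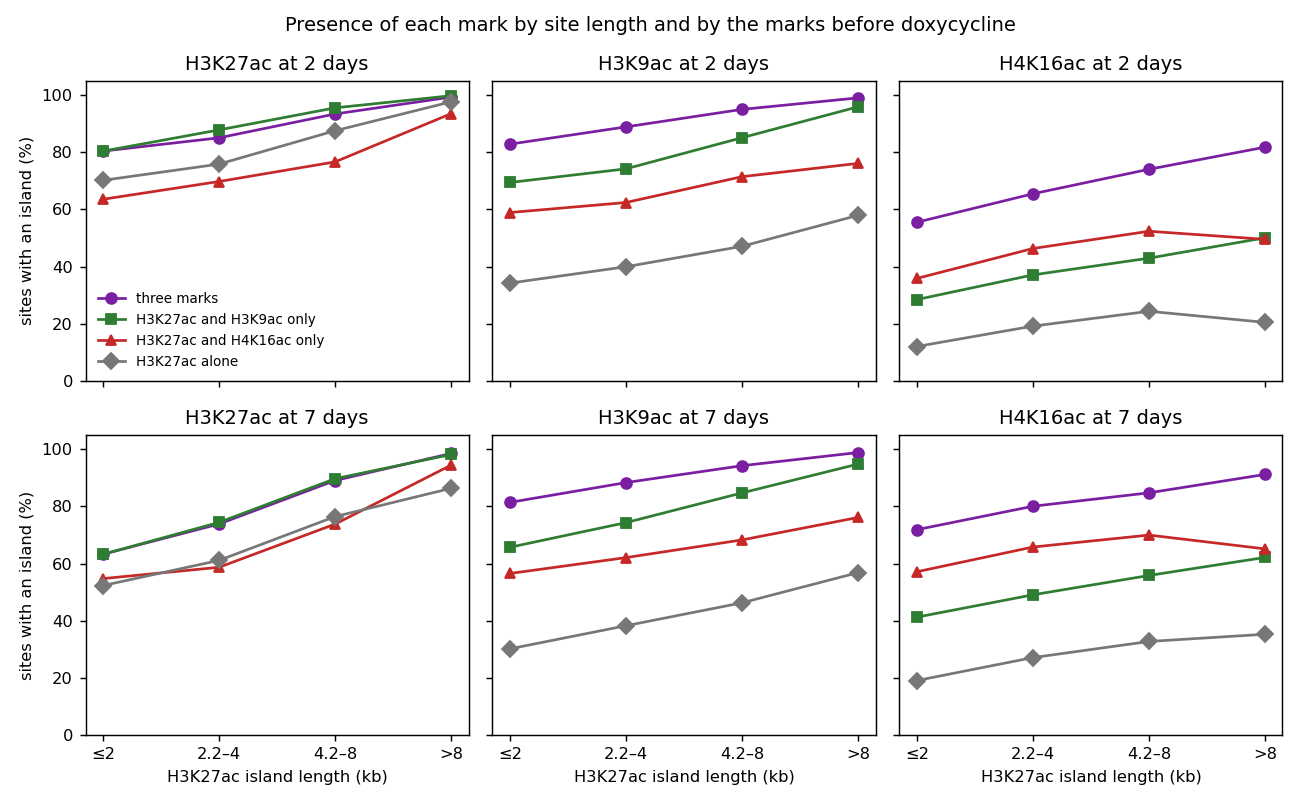
Share of sites with an island of each mark (vertical axis, %) at 2 days (top) and 7 days (bottom), by length of the H3K27ac island (horizontal axis, kb), for the 4 classes of H3K27ac islands without doxycycline. For H3K27ac the 3-mark line and the line of islands with H3K9ac alone beside it nearly coincide, while for H3K9ac the 3-mark line is the highest at every length.

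The reads a site had without doxycycline went with whether the mark was met again. H3K27ac with 20 to 50 reads was present in 59.0% of 1139 sites at 2 days and 40.7% at 7 days. With over 200 reads it was present in 99.9% and 99.6% of 12517 sites. For H4K16ac, the 3542 sites with under 20 reads had an island in 58.2% and 73.3%, and the 1453 with 100 to 200 reads in 96.0% and 99.1%. Among the 962 sites with under 20 H3K9ac reads, 78.1% and 77.0% had an island.

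All 3 marks together were present at 16475 sites at 2 days (64.6%) and at 17797 at 7 days (69.8%). They were present at both times at 13395 sites (52.6%, interval 51.9 to 53.2%), against 34.4% of all H3K27ac islands, again with the selection in the difference. The most frequent incomplete state at 2 days was H3K27ac with H3K9ac and no H4K16ac, at 5789 sites (22.7%). It held 3037 sites (11.9%) at 7 days, when H3K9ac with H4K16ac and no H3K27ac had gone from 1307 (5.13%) to 2634 sites (10.3%). The mark most often missing was therefore H4K16ac at 2 days, and at 7 days H4K16ac, at 3938 sites, and H3K27ac, at 3532, were missing about equally often. The states at a single time were not counted over all H3K27ac islands, so they have no background. Over those islands H4K16ac was also the mark least often present, at 54.6% at 2 days beside 88.0% for H3K27ac and 79.8% for H3K9ac. At 7 days these shares were 66.2%, 79.6% and 78.9%.

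**Figure D3:**
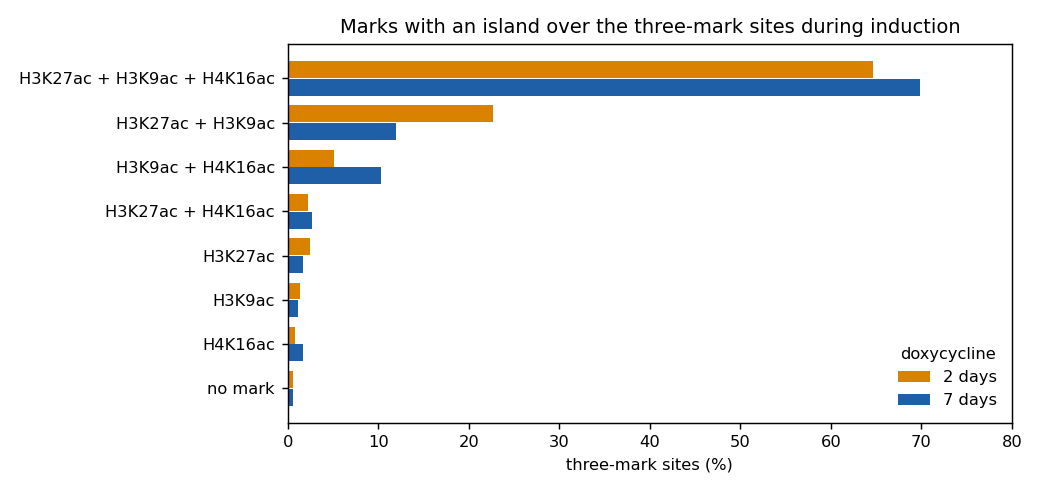
Share of the 3-mark sites (horizontal axis, %) with each combination of marks at 2 days and 7 days of doxycycline. The bar for all 3 marks is 64.6% at 2 days and 69.8% at 7 days, the bar for H3K27ac with H3K9ac goes from 22.7% to 11.9%, and that for H3K9ac with H4K16ac from 5.13% to 10.3%.

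Many of the marks missing at 2 days were called again at 7 days. The higher H4K16ac presence at 7 days depended on the islands used. Stricter islands (FDR under 1e-05, fold of at least 2) gave 57.9% at 2 days and 54.8% at 7 days. The counts below were not made over all H3K27ac islands, so they have no background. Of the 5789 sites without H4K16ac at 2 days that held the other 2 marks, 3280 had all 3 at 7 days. H4K16ac was missing at 2 days and present at 7 days at 4476 sites (17.6%), present only at 2 days at 1495 (5.87%) and missing at both times at 2443 (9.59%). H3K27ac took the other course: 2433 sites (9.55%) held it only at 2 days, 913 (3.58%) only at 7 days and 1099 (4.31%) at neither. For H3K9ac the counts were 1219, 1064 and 506, close to even in both directions. Of the 16475 sites with all 3 marks at 2 days, 1408 had lost only H3K27ac at 7 days and 1109 only H4K16ac. No mark was called at either time at 22 sites.

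Sites that lost a mark at both times are named by the most reads they had of it without doxycycline, each as its Giemsa band and hg19 position. At 3q21.3 (chr3:127413201-127421000) H3K27ac had 217 reads before doxycycline and no island afterwards. In the order of times, H4K16ac at that site had 11.5, 8.50 and 205 reads, and H3K9ac 23, 0 and 55. Read numbers count only reads in called islands, so 0 means that no island was called, and reads outside islands are not known. A read number with decimals arises where an island runs past the site, since its reads were then shared out by length. At 6q23.3 (chr6:136239401-136246600) H3K9ac had 115 reads and was then absent, while H3K27ac had 333, 215 and 68.0. The H4K16ac loss with the most reads was at 10p15.1 (chr10:4709201-4722200), from 123 reads to no island at either time. That site kept 716, 672 and 182 H3K27ac reads and 188, 188 and 279 H3K9ac reads, so the loss there concerned 1 mark of 3. Of the sites with no mark at either time, the one with the most H3K27ac reads lay at 12q13.2 (chr12:56463801-56468800), with 101 H3K27ac, 32.1 H3K9ac and 20.0 H4K16ac reads without doxycycline.

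The level of each mark was compared over sites with an island in both libraries. It was the log2 ratio of island reads over a site, each divided by relative library size. For H3K27ac the median was -0.27 at 2 days over no doxycycline (quartiles -0.52 and -0.08, 23474 sites) and -0.29 at 7 days (quartiles -0.68 and 0.02, 21954 sites). Between 7 days and 2 days, libraries that the rule did not use, the median was -0.015, with quartiles of -0.42 and 0.36. H3K9ac gave -0.08, -0.09 and -0.011, and H4K16ac -0.03, 0.06 and 0.08, in the same order of comparisons. Over all H3K27ac islands the medians were -0.28, -0.30 and -0.02 for H3K27ac, -0.10, -0.10 and -0.0068 for H3K9ac, and -0.03, 0.07 and 0.08 for H4K16ac. The medians of the 3-mark sites differed from those by at most 0.016. Closeness was partly built in, since the islands at large include the 3-mark sites. These were 23474 of 44836 islands for H3K27ac at 2 days and 21548 of 25267 for H4K16ac at 7 days over no doxycycline. Outside them, the H3K27ac median at 2 days was -0.28 with H3K9ac only, -0.40 with H4K16ac only and -0.35 with neither.

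These medians depend on what counts as a site's level. Per kb of called island, H3K27ac was higher during induction, by 0.15 at 2 days, 0.47 at 7 days and 0.32 between them, on the log2 scale. H4K16ac per kb was lower, at -0.21, -0.58 and -0.34. H3K9ac per kb was -0.03, -0.16 and -0.13. H3K27ac islands covered 71.3% of the length of the sites at 2 days and 54.4% at 7 days, H3K9ac 65.2%, 60.7% and 66.1% from no doxycycline onwards, and H4K16ac 42.8%, 39.2% and 63.0%.

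The H3K27ac ratio also followed the library in which the sites were chosen. The same rule found 26275 sites with all 3 marks in the 2 day lists and 36885 in the 7 day lists. Of the sites chosen without doxycycline, 63.0% overlapped a site of the 2 day set and 67.0% one of the 7 day set, and in the other direction 65.2% and 56.0%. Over the sites chosen at 2 days, the H3K27ac median at 2 days over no doxycycline was 0.29, against -0.27 over those chosen before. Over the sites chosen at 7 days, the median at 7 days over no doxycycline was 0.55, against -0.29. The library that set the boundaries was the higher one in each of these cases. H3K9ac, whose islands set no boundaries in any of the 3 sets, kept a median between -0.06 and -0.11 against no doxycycline in all of them. H4K16ac at 7 days over no doxycycline was 0.06, -0.0092 and -0.15 over sites chosen without doxycycline, at 2 days and at 7 days. The comparisons with no doxycycline share that library and are not independent of each other.

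**Figure D4:**
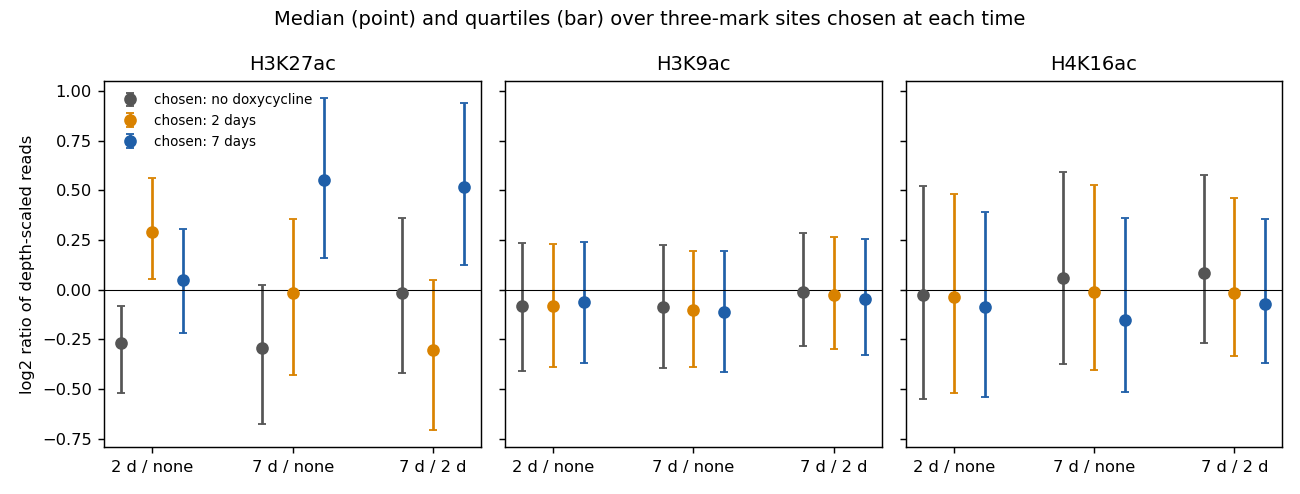
Median (point) and quartiles (bar) of the log2 ratio of depth-scaled reads (vertical axis) for each mark and pair of times (horizontal axis), over 3-mark sites chosen without doxycycline, at 2 days or at 7 days. The H3K27ac points change side of 0 with the time of choice, from -0.29 to 0.55 at 7 days over no doxycycline, while the H3K9ac points stay between -0.11 and -0.011.

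At single sites, changes of at least 2-fold were counted where either library had at least 50 reads, which the deeper library reaches more easily. H3K27ac was at least 2-fold lower at 1402 of 22834 sites at 2 days over no doxycycline (6.14%, background 6.76%) and higher at 48 (0.210%, background 0.252%). At 7 days it was lower at 2837 of 21490 (13.2%, background 13.5%) and higher at 45 (0.209%, background 0.307%). H3K9ac was higher at 818 and lower at 1165 of 19940 sites at 2 days (background 4.08% and 6.16%), and higher at 879 and lower at 978 of 20989 at 7 days (background 4.14% and 4.94%). H4K16ac was higher at 1749 and lower at 1494 of 11201 at 2 days (background 15.2% and 13.9%), and higher at 3035 and lower at 833 of 20398 at 7 days (background 15.3% and 4.0%). Between 7 days and 2 days, H3K27ac was higher at 466 and lower at 1452 of 18621 sites (background 2.5% and 8.35%). H3K9ac was higher at 967 and lower at 715 of 20773 (background 5.25% and 3.77%), and H4K16ac higher at 2232 and lower at 503 of 16495 (background 14.3% and 3.0%). The background is the same share over all H3K27ac islands on chromosomes 1 to 22, which include the 3-mark sites. The shares at 3-mark sites lay near it in every comparison, which this overlap partly fixes. For H4K16ac at 2 days, 11201 of the 12821 islands tested were 3-mark sites. The direction of the calls depended on the scaling and on how reads were given to a site. With the reads in islands as library size, H4K16ac sites past 2-fold were higher in 29.8% rather than 78.5% at 7 days over no doxycycline, and in 41.6% rather than 81.6% over 2 days. With whole reads of touching islands, not shared out by length, H3K27ac was higher at 837 and lower at 740 sites at 2 days over no doxycycline, so that 53.1% rather than 3.31% of the calls were higher. At 7 days it was higher at 547 and lower at 1988, or 21.6% rather than 1.56% higher. With the median of all H3K27ac islands set to 0, the higher share went from 1.56% to 14% for H3K27ac at 7 days over no doxycycline. For H3K9ac it went from 41.3% to 51.8% at 2 days and from 47.3% to 58.5% at 7 days. The background was not worked out under these other settings, so these counts do not compare 3-mark sites with the islands at large.

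The largest falls named here were sites that the later island only grazed, and the largest H4K16ac rise was a site that the earlier island had only grazed. H3K27ac fell most at 7 days over no doxycycline at 7q22.1 (chr7:102941801-102958000), with 302, 162 and 1.89 reads in the order of times and a log2 ratio of -5.90 (interval -8.87 to -3.96). Islands at 7 days covered 1.23% of that site, and per kb of island the ratio was 0.44. Reads at grazed sites were shared out by length, and the intervals here leave out the error of that sharing. The largest H4K16ac fall at 7 days, at 7p15.1 (chr7:28074201-28083000), went from 102 reads over 81.8% of the site to 5.81 over 2.27%, a log2 ratio of -5.77 (interval -7.20 to -4.55). The largest H4K16ac rise, at 6p22.3 (chr6:18213801-18227000), went from 2.55 reads over 1.52% of the site to 375 over 93.9%, a ratio of 5.56 (interval 3.77 to 7.61). H3K9ac at 15q22.2 (chr15:59509601-59520600) had 106, 3.38 and 104 reads, and so was both the largest fall at 2 days (-5.42) and the second largest rise from 2 days to 7 days (4.71). Its coverage was 61.8%, 1.82% and 38.2%. The 5 largest falls of H3K27ac lay between -5.64 and -4.62 at 2 days and between -5.90 and -4.77 at 7 days. The 5 largest falls and rises of H4K16ac at 7 days over no doxycycline lay between -5.77 and -5.29 and between 5.15 and 5.56.

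The 5 largest H3K27ac rises over no doxycycline lay between 1.63 and 1.77 at 2 days and between 1.49 and 2.04 at 7 days. The rule lets H3K27ac without doxycycline cover every site from end to end, so no such rise could start from a grazed site. At 10q26.2 (chr10:127517801-127521000) H3K27ac had 53.0 reads without doxycycline, 143 at 2 days and no island at 7 days. The log2 ratio at 2 days was 1.77 (interval 1.31 to 2.25). H3K9ac at this site had 79.7, 102.6 and 116 reads and H4K16ac 33.7, 62.2 and 143. The largest rise at 7 days over no doxycycline was at 19q13.43 (chr19:59078001-59081400), with 58.0, 0 and 89.6 reads and a ratio of 2.04 (interval 1.56 to 2.55). H3K9ac there had 32 reads before doxycycline and no island afterwards. At 1p36.31 (chr1:6583201-6586600) H3K27ac had 65.0, 48.0 and 77.2 reads, a ratio of 1.67 at 7 days (interval 1.17 to 2.16). Between 2 days and 7 days the largest rise was at 4p16.1 (chr4:7760001-7772600), with 256, 15.4 and 96.7 reads and a ratio of 3.73 (interval 2.98 to 4.66). H3K27ac islands covered 9.52% of it at 2 days and 60.3% at 7 days, and H4K16ac, with 83.0 reads before, had no island at either time.

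Where islands of both libraries covered at least 80% of a site, few sites differed by 2-fold. For H3K9ac, 8 sites were higher and 3 lower of 3594 at 2 days over no doxycycline, 2 and 13 of 4628 at 7 days, and 3 and 9 of 4463 between 7 days and 2 days. The background shares, in that order, were 0.213% and 0.128%, 0.0327% and 0.294%, and 0.0829% and 0.282%. For H4K16ac, no site was higher in any of the 3 comparisons, and 3 of 887, 40 of 2640 and 6 of 3830 were lower (background 0.615%, 1.63% and 0.217%). For H3K27ac, 39 were higher and 106 lower of 10661 at 2 days (background 0.439% and 1.14%), and 27 and 80 of 4636 at 7 days (background 0.874% and 2.04%). Between 7 days and 2 days 84 were higher and 31 lower of 3024 (background 2.69% and 1.4%). These covered sites are the ones strong enough to be called from end to end in both libraries. Their medians were -0.16, -0.02 and 0.17 for H3K27ac, -0.03, -0.12 and -0.09 for H3K9ac, and -0.13, -0.35 and -0.20 for H4K16ac. The sign of the H4K16ac medians at 7 days, and that of H3K27ac from 2 days to 7 days, was opposite to the one over all sites.

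A few of the covered sites with large changes follow, named after their values were seen, and larger ones exist in some comparisons. For H3K27ac at 2 days over no doxycycline, the largest fall was at 13q34 (chr13:114186001-114187000), with 98.0, 19.7 and 14.6 reads (-1.98, interval -2.73 to -1.25), and the largest rise was the one at 10q26.2 given above. H3K27ac at 9p13.3 (chr9:34220201-34223600) had 251, 171 and 29.6 reads, a log2 ratio of -1.67 at 7 days over no doxycycline (interval -2.25 to -1.10). H3K9ac at that site had 58.6, 53.0 and 83.0 reads and H4K16ac 41.4, 57.0 and 114, with an island of both at each time. At 6p25.1 (chr6:5003601-5005200) H3K9ac had 65.6, 44.7 and 122 reads, the largest rise of a covered site between 2 days and 7 days (1.22, interval 0.71 to 1.74). H3K27ac there had 181, 91.1 and 57.1 reads. H4K16ac at 15q25.3 (chr15:88865601-88868800) had 60.4, 35.0 and 60.4 reads in libraries of rising depth, a ratio of -1.64 at 7 days over no doxycycline (interval -2.18 to -1.10). At 6p12.3 (chr6:47276401-47278000) H3K27ac had 74.0, 23.3 and 60.4 reads, and rose by 2.45 from 2 days to 7 days (interval 1.75 to 3.22) while its H4K16ac, at 26 reads before, had no island later.

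The 10 sites with the most H3K27ac reads kept an island of all 3 marks at both times. For H3K27ac the pick nearly fixed this, since 99.9% and 99.6% of all sites with over 200 reads kept it. Keeping H3K9ac was no particular trait of these sites either. All 1920 sites with over 200 H3K9ac reads without doxycycline kept it at both times, and these 10 had 252 or more. They were 14400 to 19000 bp long and had 1839 to 2660 H3K27ac reads without doxycycline, 1233 to 2007 at 2 days and 491 to 1411 at 7 days. Their H3K9ac reads were 252 to 638, 450 to 890 and 499 to 1094. The first, at 17p12 (chr17:14198801-14216000), had 2660, 2007 and 1010 H3K27ac reads. Divided by library size and site length these were 38.9, 37.1 and 39.4, nearly the same level at each time. H3K9ac on that scale was 10.4, 12.4 and 13.02, and H4K16ac 5.14, 0.622 and 2.00. H4K16ac islands covered 76.7%, 9.30% and 47.7% of it. At the second, 17p13.1 (chr17:7734201-7750800), H3K27ac was 39.5, 37.8 and 57.0 on the same scale and H4K16ac 5.14, 1.25 and 1.62. At both, H4K16ac and H3K27ac were lowest at 2 days, H3K27ac by little. The third, at 20q13.12 (chr20:45973401-45992000), had 370, 330 and 877 H4K16ac reads, which is 7.86, 5.76 and 5.98 on that scale, again lowest at 2 days but by less.

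Sites ranked alike over time for H3K27ac and less so for H4K16ac. Spearman's rho of reads per kb of site between no doxycycline and 2 days was 0.91 for H3K27ac (23474 sites), 0.66 for H3K9ac (23916) and 0.47 for H4K16ac (18567). Between 2 days and 7 days, libraries that the rule did not use, the values were closer, at 0.78, 0.71 and 0.57. Median reads per site without doxycycline were 195, 67.0 and 36.4 for these marks, and the part of read number in rho was not tested. Within a time, H3K27ac and H3K9ac had a rho of 0.51, 0.44 and 0.50 in the order of times. H3K27ac and H4K16ac had -0.10, -0.19 and -0.20, a weak inverse relation. H3K9ac and H4K16ac had 0.20, 0.19 and 0.20. The ratios of 7 days over 2 days of different marks were nearly unrelated, at -0.03 for H3K27ac and H3K9ac (19418 sites), 0.06 for H3K27ac and H4K16ac (13988) and 0.02 for H3K9ac and H4K16ac (15933). These are descriptions across sites, which share site length, libraries and sequence, and are not replicates.

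The 3-mark sites were spread unevenly over the chromosomes. Of H3K27ac islands under the length limit, 60.8% were 3-mark sites on chromosome 17, 58.3% on chromosome 15 and 57.2% on chromosome 1. The share was 26.3% on chromosome 13 (272 of 1033), 33.8% on chromosome 16 and 37.7% on chromosome 19. Island length differed too, with medians of 4600, 4200 and 4400 bp on chromosomes 17, 15 and 1. On chromosomes 13, 16 and 19 they were 3600, 4000 and 3600 bp. Chromosome 17 had 17.4 sites per Mb and chromosome 13 had 2.36. Bands that stain light with Giemsa, which are rich in genes, had a share of 53.2%, and the darkest class had 43.2%. Their median island lengths were 4400 and 3900 bp. By band, with at least 50 islands, the share was highest at 10q24.32 (77 of 91, 84.6%), 17p11.2 (139 of 167, 83.2%) and 5q32 (112 of 143, 78.3%). It was lowest at 16q24.3 (0 of 53, which allows a share of up to 6.72% by the exact binomial interval), 13q14.2 (2 of 51), 13q12.3 (3 of 61), 16q24.1 (6 of 94) and 13q14.11 (6 of 88). These bands were picked after their values were seen.

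The poorest bands had few islands of H4K16ac and of H3K9ac at all 3 times. The bands were picked for a low share of 3-mark sites, which fixes a shortage without doxycycline. Islands of H4K16ac lay over 11.4%, 7.95% and 2.27% of the H3K27ac islands of 13q14.11 in the order of times, and over 8.51%, 8.51% and 4.26% of those of 16q24.1. H3K9ac lay over 33.0%, 36.4% and 34.1% of them at 13q14.11 and over 38.3%, 42.6% and 45.7% at 16q24.1. Over all H3K27ac islands, H4K16ac lay over 60.0%, 54.6% and 66.2%, and H3K9ac over 76.6%, 79.8% and 78.9%. The HRP control was low there too, at 1.05 reads per kb of H3K27ac island in 13q14.11, 1.24 in 16q24.1 and 0.956 in 16q24.3, and high in 17p11.2, at 3.12. Over 424 bands the share of 3-mark sites and HRP reads per kb had a Pearson correlation of 0.35 and a Spearman correlation of 0.06. Without chromosomes 13, 16 and 17 they were 0.03 and -0.016 over 391 bands, so the relation rests on those chromosomes. The part of the control reads, of DNA copy number or of island length in these shares was not tested. On 19p, where 225 of 711 islands were 3-mark sites, H4K16ac was present at 34.7% of these sites at 2 days and 63.6% at 7 days. The values for all 3-mark sites were 72.9% and 84.5%. Over all 711 islands of 19p H4K16ac was present at 17.02% and 35.44%, so its low presence there was not particular to the 3-mark sites. The 711 islands include these sites, which had to carry H4K16ac without doxycycline. H3K27ac was present at 96.4% and 97.3% of the 3-mark sites of 19p, and at 88.75% and 89.31% of the 711 islands. Leaving out the arms 13q, 16q and 17p changed the share of sites with all 3 marks at both times from 52.6% to 52.4%.

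**Figure D5:**
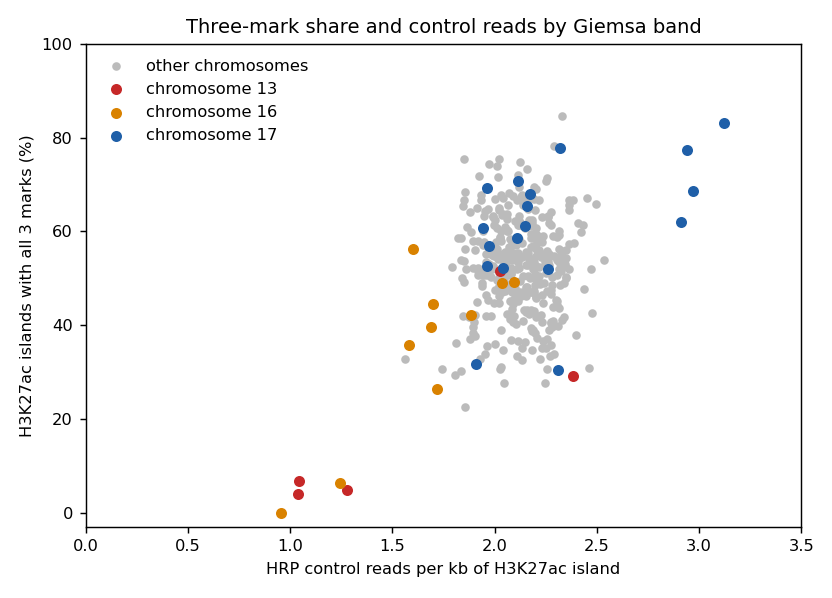
Share of H3K27ac islands under 20000 bp that were 3-mark sites (vertical axis, %) against HRP control reads per kb of H3K27ac island (horizontal axis), with 1 point for each of 424 Giemsa bands holding at least 50 islands. Bands of chromosomes 13 and 16 with few control reads lie at the lower left, those of chromosome 17 with many at the upper right, and the other chromosomes form a cloud without a slope.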

How the data were processed

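Each antibody library has an island list called by the authors against the HRP control, and the control enters here through those lists. The submitters' processing notes list hg19, and SICER, Bowtie2 2.3.5.1, cutadapt, Picard, deepTools and FastQC as tools. No settings for them are stated in the sources used here. The deposited antibody and HRP columns are whole-number counts per island. The deposited p-value, log2 fold and score columns are the authors' own. Relative library size was taken from the constant between the deposited log2 fold and the ratio of the counts, where an HRP count of 0 enters as 0.25.

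An island's reads were given to a site by the share of its length inside the site (Python 3.11.15, pandas 2.3.3, numpy 2.4.6, scipy 1.17.1), and the code was tested on simulated data. Intervals are exact Clopper-Pearson (order statistics for medians). PCR reads are not independent molecules. Named sites are the 5 largest rises and falls per mark and comparison among sites called in both libraries, with 50 or more reads in 1 of them, the 10 with the most H3K27ac reads, the 5 on each side of the length limit, and the 5 lost sites with the most reads per mark. The sites that carry no mark at either time, the covered sites and the bands were added after their values were seen. The members and lists were chosen with earlier results of these data known. Alternatives were stricter islands, coverage minimums, equal list sizes, library sizes from island reads, centring, whole reads, reads per kb, read minimums and length limits; sites chosen at 2 or 7 days and the left-out arms were chosen after seeing the data. Plans for genes and cell type markers were not carried out, since the annotation at hand is on another build. Bands came from circlize 0.4.16. The labels name no spike-in, so an overall change in acetylation cannot be told apart from library size.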

Additional observations from a re-analysis of the deposited data

Results flagged for a closer look

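H4K16ac over the 3-mark sites had a median log2 ratio of -0.027 at 2 days over no doxycycline and of 0.060 at 7 days. The opposite signs drew attention; the difference was not tested, both values share the library without doxycycline, and both are small beside the quartiles (-0.55 and 0.52 at 2 days, -0.37 and 0.59 at 7 days). Chromosome X lies outside the rule but holds sites of the same kind: 118 of its 1082 H3K27ac islands (10.9%) carried all 3 marks without doxycycline. On these, H3K27ac was present at 99.2% at 2 days and 94.9% at 7 days, H3K9ac at 83.9% and 91.5%, and H4K16ac at 33.1% and 38.1%. The HRP control had 1.82 reads per kb on them. Presence over all H3K27ac islands of chromosome X was not worked out, so these shares have no background.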

How the results depend on the processing

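No paired analysis was possible because each mark and time had 1 library, and for the same reason no replicate could be left out. Where a value moved, the cause was not tested unless the setting itself gives it, such as fewer sites counted. Requiring each other mark to cover at least 50% of the island left 9780 of 25486 sites. The count was 20872 under 10000 bp, 26740 without a length limit and 17209 with stricter islands (FDR under 1e-05 and a fold of at least 2). Presence is given below for H3K27ac, H3K9ac and H4K16ac, each at 2 and 7 days, followed by the share with all 3 marks at both times. With stricter islands the values were 87.1% and 81.7%, 82.0% and 77.7%, 57.9% and 54.8%, then 27.6%. H4K16ac was then less often present at 7 days than at 2 days, the reverse of the main order. Requiring at least 50% of the site covered gave 79.9% and 58.1%, 69.4% and 75.9%, 43.0% and 70.2%, then 13.6%. With the same number of islands per list they were 87.8% and 70.8%, 88.4% and 91.3%, 70.1% and 84.5%, then 42.2%. Sites under 10000 bp gave 90.4% and 83.2%, 92.6% and 91.9%, 70.5% and 82.8%.

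Median log2 ratios follow for the same 3 marks, each as 2 days over no doxycycline, 7 days over no doxycycline and 7 days over 2 days. Sites under 10000 bp gave -0.30, -0.30 and 0.00092, then -0.078, -0.085 and -0.014, then -0.018, 0.013 and 0.023. With reads in islands as library size they were -0.17, -0.27 and -0.093, then -0.090, -0.14 and -0.058, then -0.098, -0.45 and -0.36, which turned H4K16ac at 7 days. Centring on all H3K27ac islands gave 0.0074, 0.0046 and 0.0073, then 0.016, 0.010 and -0.0037, then 0.0061, -0.0065 and 0.0010. Whole reads of touching islands gave -0.10, -0.14 and -0.058, then -0.11, -0.024 and 0.083, then 0.12, 0.81 and 0.75. Per kb of island they were 0.15, 0.47 and 0.32, then -0.030, -0.16 and -0.13, then -0.21, -0.58 and -0.34. Sites covered by at least 80% in both libraries gave -0.16, -0.024 and 0.17, then -0.032, -0.12 and -0.090, then -0.13, -0.35 and -0.20. A missing island entered as 3 reads gave -0.30, -0.40 and -0.068, then -0.12, -0.13 and -0.014, then -0.39, -0.096 and 0.22. Over sites chosen at 2 days they were 0.29, -0.016 and -0.30, then -0.082, -0.10 and -0.027, then -0.038, -0.0092 and -0.016. Over sites chosen at 7 days they were 0.048, 0.55 and 0.52, then -0.060, -0.11 and -0.045, then -0.089, -0.15 and -0.073. H3K9ac against no doxycycline stayed below 0 in all of these but the centring. Leaving out the arms 13q, 16q and 17p moved no presence or median beyond its interval over sites, which serves here only as a yardstick of size.

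Sites past 2-fold, higher and lower together, numbered 1450, 2882 and 1918 for H3K27ac, 1983, 1857 and 1682 for H3K9ac and 3243, 3868 and 2735 for H4K16ac. Covered by at least 80% in both libraries, they were 145, 107 and 115, then 11, 15 and 12, then 3, 40 and 6. With at least 100 reads in either library they were 842, 2300 and 1217, then 773, 807 and 880, then 850, 2936 and 2159. Whole reads gave 1577, 2535 and 2830 for H3K27ac, 4034, 4012 and 3740 for H3K9ac and 5646, 10238 and 7592 for H4K16ac. Centring gave 742 and 1712 for H3K27ac against no doxycycline. Background shares exist only for the main setting and the covered sites. Without a read minimum, or with reads in islands as library size, no count moved by over 1.5 times. Depth limits what could be called: H3K27ac at 7 days had a relative size of 1.49, and a site missing from that list may lie under its detection limit.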
